A study of Heterocephalus glaber with 2 samples.

Results

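In all, 10 genes of secreted acute phase and antimicrobial proteins were examined in skin fibroblasts of the naked mole-rat (NMR). They were *Fdcsp*, *Lcn2*, *Slpi*, *Ptx3*, *Hp*, *Lbp*, *S100a8*, *S100a9*, *Ltf* and *A2m*, taken by symbol and chosen by the FPKM values of this contrast, because *Fdcsp* stands among the strongest rises after *β-catenin* knockdown. Of these 10 symbols, 9 had an entry among the 37520 entries of the deposited tables, each a single entry. *Lcn2*, the gene of the siderophore-binding lipocalin, was not analysed here. Since the knockdown contrast itself led to the choice, every difference given for the members is a description of it.

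The study transduced primary adult NMR skin fibroblasts (NSFs) with a lentivirus that carried either an empty vector (shControl) or hairpin #1 against *β-catenin* (shβ-catenin). Cells of both groups were selected with puromycin and replated before RNA was taken, and the control carried no hairpin. Each group is 1 library, so no value has a replicate error and no difference could be tested. Expression is given as FPKM, in which fragments are scaled by exon length and library size, a scale on which levels of different genes can be compared. *Ctnnb1*, which encodes β-catenin, stood at 530 FPKM in shControl and at 69.0 FPKM after the knockdown, 7.69-fold lower, and of its known targets *Ccnd1* stood at 285 and 141 FPKM, *Myc* at 40.0 and 29.6 FPKM and *Axin2* at 3.60 and 2.89 FPKM. Of the 12 fibroblast markers all had an entry, and 10 were retained, that is, averaged 1 FPKM or more over both libraries. Of these, 8 were lower and 2 higher after the knockdown. *Col1a1* (1258 and 856 FPKM) and *Vim* (3363 and 2804 FPKM) were abundant, whereas *Thy1* (0.303 and 1.39 FPKM) and *Lum* (0.574 and 1.38 FPKM) were scarce for fibroblasts. *Thy1* and *Lum* were not retained, and their log2 fold-changes were 1.89 and 1.14. Among the 10 retained markers the largest log2 fold-changes were those of *Dcn* (0.316 and 2.42 FPKM), *Fap* (3.69 and 7.93 FPKM), *Col3a1* (1067 and 542 FPKM) and *Pdgfrb* (64.5 and 36.8 FPKM). *Dcn* was retained only through its shβ-catenin value, and the study also lists it among its higher genes. Of 13 retained reference genes none differed by more than 2-fold, and the largest differences were in *Gapdh* (1374 and 910.5 FPKM), *Ppia* (1802 and 1369 FPKM), *Gusb* (30.9 and 39.9 FPKM) and *Sdha* (86.0 and 69.0 FPKM). FPKM sums were 609786 and 591905, read totals are unknown, and the median log2 fold-change of the 13097 retained genes was −0.01.

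The acute phase response is the change in secreted proteins that follows injury or infection. Interleukin 1 and interleukin 6 drive it through NF-κB, C/EBP factors and STAT3, mainly in the liver but also in tissue cells such as fibroblasts and epithelia. Its products recognize microbes (pentraxin 3, LPS-binding protein), withhold metals from them (calprotectin, lactoferrin), inhibit proteases (SLPI, α2-macroglobulin) or clear hemoglobin (haptoglobin).

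The members fell into 3 kinds. The genes *Ptx3*, *Fdcsp* and *Hp* were retained. Another 3, *S100a9*, *Slpi* and *A2m*, lay above 0 but below that level, and *Lbp*, *Ltf* and *S100a8* were listed at 0 in both libraries. *Fdcsp* was more than 4-fold higher in shβ-catenin cells, *Ptx3* more than 2-fold but less than 4-fold higher, and *Hp* nearly even. In the same comparison 0.68% of the 13097 retained genes were more than 4-fold higher and 3.27% more than 2-fold higher. No retained member was lower, beside 0.206% of retained genes more than 4-fold lower and 2.05% more than 2-fold lower. As the choice of *Fdcsp* used this contrast, nothing is read from these counts.

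**Figure D1:**
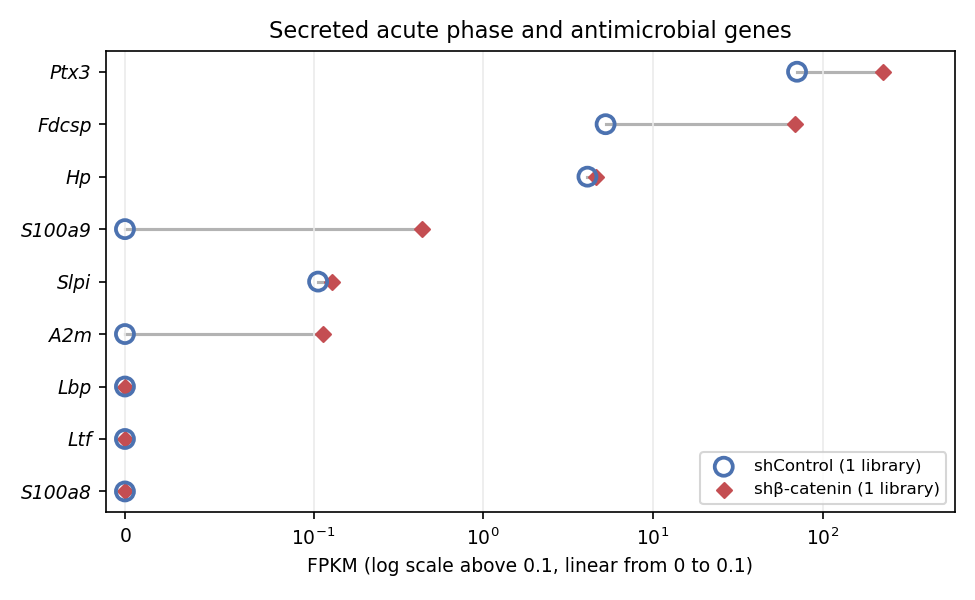
FPKM of each of the 9 members in the shControl library (open circles) and the shβ-catenin library (diamonds), on an axis that is linear from 0 to 0.1 and logarithmic above. *Fdcsp* moves from 5.26 to 68.7 FPKM and *Ptx3* from 70.6 to 226 FPKM, *Hp* and *Slpi* hardly move, and the bottom 3 genes are listed at 0 in both libraries.

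*Fdcsp* encodes follicular dendritic cell secreted protein, a small secreted peptide first known from human follicular dendritic cells and also made by the epithelium that attaches gum to tooth. It was listed at 5.26 FPKM in the control and at 68.7 FPKM after the knockdown. The latter value was 13.1-fold higher, a log2 fold-change of 3.68 after 0.1 FPKM was added to both values. In terms of level, *Fdcsp* moved from position 9095 among all entries in shControl to position 1279 in shβ-catenin cells.

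By log2 fold-change *Fdcsp* ranked 23 of 13097 retained genes. Of the 22 genes above it, 15 were listed at 0 in shControl, and only 6 carried a symbol other than a locus number. Among the 2470 genes whose mean reached that of *Fdcsp* (37.0 FPKM), 10 were more than 4-fold higher, *Fdcsp* included, and 3 exceeded its log2 fold-change, namely *Tac1*, *Il1b* and *Selp*. The mean of *Fdcsp* owes most to its shβ-catenin value, and the gene was chosen as one of the strongest rises. Its high rank therefore follows from the choice.

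The 5 genes with a symbol whose log2 fold-change was closest to that of *Fdcsp* were *Selp*, *Il1b*, *Kiaa1644*, *Cd74* and *Ccl20*, at distances of 0.08, 0.10, 0.22, 0.34 and 0.45. With 1 library per group this likeness rests on a single fold-change. *Selp*, the adhesion receptor P-selectin, was listed at 13.6 and 186 FPKM. *Il1b*, which encodes interleukin 1β, stood at 5.42 and 75.6 FPKM, close to *Fdcsp* in both libraries. *Kiaa1644* was far less abundant (0.0419 and 2.02 FPKM). *Cd74*, the invariant chain of MHC class II, was 10.5-fold higher and the chemokine *Ccl20* 9.67-fold higher. All of them but *Kiaa1644* also stand in the table of higher genes that the study drew from these libraries.

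*Ptx3* encodes pentraxin 3, a soluble pattern recognition molecule that fibroblasts, endothelial cells and myeloid cells release on inflammatory stimulation. It was the most abundant member in both libraries, with 70.6 FPKM in the control and 226 FPKM after the knockdown. This was a 3.20-fold higher value and a log2 fold-change of 1.68, which ranked 132 of 13097 genes. Only 556 entries had a mean of at least that of *Ptx3* (148 FPKM), and 14 of these, *Ptx3* included, were more than 2-fold higher.

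*Ptx3* made up 88.2% of the summed FPKM of the members in shControl and 75.4% in shβ-catenin cells. The share of *Fdcsp* was 6.57% and 22.9%, and the sum over the members went from 80.1 to 300.0 FPKM. Thus the level of *Ptx3* was 13.4 times that of *Fdcsp* in the control and 3.29 times that of *Fdcsp* after the knockdown.

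*Hp* encodes haptoglobin, the plasma protein that binds free hemoglobin and a classical liver product of the acute phase. Its values were 4.11 FPKM in the control and 4.62 FPKM after the knockdown, a 1.12-fold difference and a log2 fold-change of 0.16. Its rank by fold-change was 3905 of 13097, inside the bulk of all genes. *Hp* and *Fdcsp* had similar levels in shControl, with a ratio of *Fdcsp* to *Hp* of 1.28, whereas in shβ-catenin cells the ratio was 14.9.

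**Figure D2:**
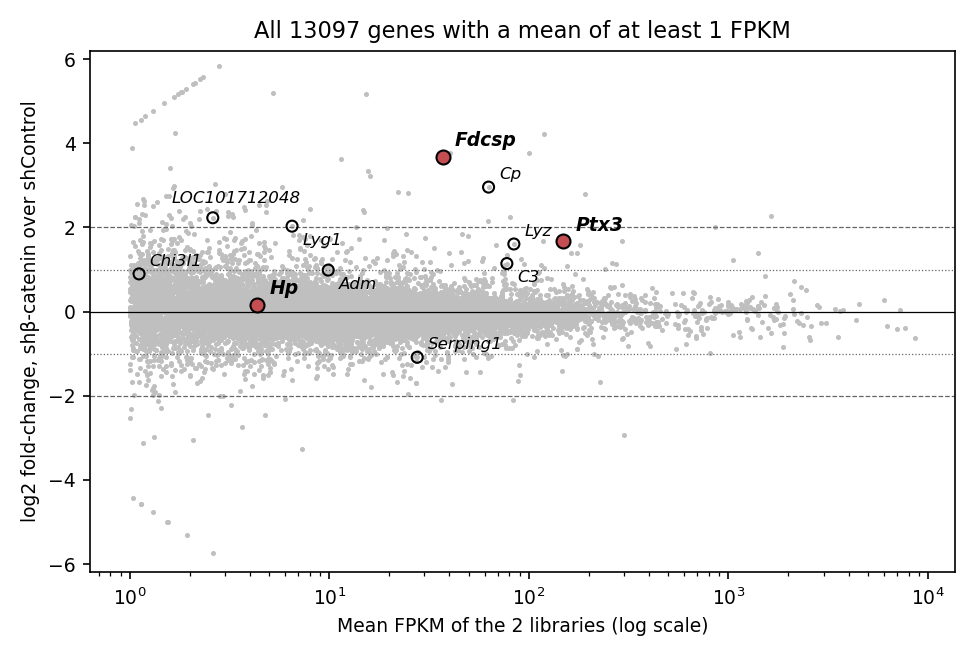
log2 fold-change (shβ-catenin over shControl, 0.1 FPKM added) against the mean FPKM of both libraries for the 13097 retained genes, with the members as filled points and named genes of the acute phase and antimicrobial lists as open circles; dashed lines mark 4-fold, dotted lines 2-fold, and 1 gene lies outside the plotted range. *Fdcsp* (3.68) and *Ptx3* (1.68) lie above most genes of similar abundance, and *Hp* (0.16) lies within the cloud.

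The protease inhibitor gene *Slpi*, whose product blocks neutrophil elastase, had 0.106 FPKM in the control and 0.128 FPKM after the knockdown. The ratio of these values, 1.202, was the commonest one among the 5239 genes that lay between 0 and 1 FPKM in each library, and 725 of them had it within 0.002%. Genes with the same number of fragments in both libraries have this ratio if the shControl library is 1.202 times as deep. The smallest such numbers for *Slpi* are 1 and 1 fragment, and the ratio then has a 95% counting interval (Clopper-Pearson, exact) from 0.0153 to 94.4. At 2 and 2 fragments the interval runs from 0.0872 to 16.6. These intervals cover counting error only, and no difference in *Slpi* was detectable at this depth.

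*S100a9* and *S100a8* encode the subunits of calprotectin, which binds zinc and manganese and is most abundant in neutrophils. *S100a9* was listed at 0 in the control and 0.434 FPKM after the knockdown, and *S100a8* at 0 in both. *A2m*, the gene of the broad protease inhibitor α2-macroglobulin, was listed at 0 in the control and 0.114 FPKM after the knockdown. No fold is given against a listed 0. In all, 1926 of the 37520 entries (5.13%) were listed at 0 in shControl but not in shβ-catenin cells, against 1476 entries the other way round.

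*Lbp*, whose product hands lipopolysaccharide to CD14, and *Ltf*, which encodes the iron-binding lactoferrin, were listed at 0 in both libraries together with 15396 entries in all (41.0%). A listed 0 does not show absence here, because *Ywhaz*, a gene that nearly all cells use, was also listed at 0 in both.

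Neighboring genes were looked up in the order of the RefSeq gene table of the NMR (assembly H.glaber_assembly_v1.0, used for names only, since the study mapped to another assembly). The table gives no chromosome, so neighbors were inferred from the order of its rows. All 9 members were found in it. *Fdcsp* was listed beside *Odam*, a gene of the same dental epithelium, which was listed at 0 in the control and 0.596 FPKM after the knockdown, and LOC101716737, listed at 0 in both, stood on its other side. *S100a8* and *S100a9* stood next to each other. The neighbors of *Hp*, *Dhodh* (10.03 and 8.58 FPKM) and *Txnl4b* (9.34 and 9.17 FPKM), differed little between the libraries. On one side of *Ptx3* stood LOC101724690 (1.47 and 2.36 FPKM). Only 3 of the 14 direct neighbors with a value were retained, and none of the 3 differed by more than 2-fold.

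Other genes of the positive acute phase, those whose products increase, were also examined. Of 24 such genes, 17 had an entry. Among all 37520 entries, 15396 were listed at 0 in both libraries and 13097 were retained. Among the 17 genes, 5 were listed at 0 in both libraries and 5 were retained. Of the latter, 4 were higher in shβ-catenin cells and 1 was lower. Their median log2 fold-change was 1.14, beside −0.01 over all retained genes, of which 48.7% were higher. *Cp*, which encodes the copper-carrying ferroxidase ceruloplasmin, was listed at 14.2 and 111 FPKM (7.82-fold). LOC101712048, a serum amyloid A-4 gene by the annotation in the study's table of higher genes, stood at 0.852 and 4.37 FPKM (5.12-fold). Both stand in that table, so neither they nor the median that includes them is independent evidence of a direction. LOC101712048 was also retained only through its shβ-catenin value. *Tnfaip6*, which is not in that table, had a log2 fold-change of 0.67. The complement gene *C3* was listed at 48.4 and 107 FPKM (2.21-fold).

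The gene that was lower was *Serping1*, the inhibitor of complement C1, at 37.5 and 17.6 FPKM (2.13-fold). The liver genes *Crp*, *Apcs*, *Fga* and *Serpina3* were listed at 0 in both libraries, like *Lbp*. Among genes not retained, *Hpx*, the gene of the heme-binding hemopexin, had 0.539 and 0.288 FPKM, and *Hamp*, the gene of the iron-regulating peptide hepcidin, was listed at 1.30 FPKM in shControl and at 0 in shβ-catenin cells.

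Negative acute phase genes, whose liver products decrease, showed no shared direction. Of 7 with an entry, 4 were listed at 0 in both libraries, among them *Alb* and *Ttr*, and 3 were retained, with a median of 0.11. *Rbp4*, the gene of the retinol carrier, was listed at 574 and 776 FPKM, *Apoa1* at 54.1 and 58.4 FPKM and *Ahsg*, the gene of fetuin-A, at 5.67 and 3.18 FPKM.

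Among 28 antimicrobial genes 18 had an entry, 8 were listed at 0 in both libraries and 6 were retained. Of these, 4 were higher and 2 lower, and their median was 0.94, beside 48.7% higher and a median of −0.01 over all retained genes. As this list was chosen with earlier results of these data known, nothing is read from these counts. Among lysozyme genes, *Lyg2* was listed at 0 in both libraries and the others were higher. *Lyz*, which encodes the enzyme that cleaves bacterial cell walls, was listed at 41.5 and 127 FPKM (3.05-fold), and *Lyg1*, a goose-type lysozyme that the study's table also lists, at 2.50 and 10.5 FPKM (4.21-fold). The vasodilator and antimicrobial peptide gene *Adm* stood at 6.60 and 13.2 FPKM, and *Chi3l1*, the gene of a chitinase-like glycoprotein, at 0.749 and 1.48 FPKM. *Chi3l1* was retained only through its shβ-catenin value, and the median of the list rests partly on it. The lower ones were the most abundant of the list, *Rarres2*, the gene of chemerin (197 and 149.9 FPKM), and *Lgals3*, the gene of galectin-3 (753 and 748 FPKM), and the summed level of the list was 1002 and 1050.1 FPKM. The genes of cathelicidin (*Camp*), β-defensin 1 (*Defb1*) and bactericidal/permeability-increasing protein (*Bpi*), which is related to LPS-binding protein, were listed at 0 in both.

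Most retained S100 genes had higher values in shControl. Besides *S100a8* and *S100a9*, 14 family genes had an entry, and 10 were retained. Of these, 9 were lower and 1 was higher, each by less than 2-fold, and the median log2 fold-change was −0.23. Over all 13097 retained genes 6725 were lower. The list was chosen with earlier results of these data known. *S100a4* was listed at 3136 and 1973 FPKM and *S100p* at 2620 and 2096 FPKM, levels far above that of *S100a9*. *S100a16* stood at 180.0 and 140.0 FPKM and *S100a5* at 7.40 and 5.55 FPKM. The summed level of the family genes was 7636 FPKM in the control and 5705 FPKM after the knockdown. Among relatives of the remaining members, 6 were retained, of which 2 were higher and 4 lower, and their median was −0.17, but 0.35 when genes of any level above 0 were counted. The one beyond 2-fold was *Cd109*, a membrane-bound relative of α2-macroglobulin, at 30.9 and 10.7 FPKM. The pentraxin relatives *Nptxr* (1.13 and 2.05 FPKM) and *Ptx4* (1.83 and 1.66 FPKM) had levels far below *Ptx3*. Of the relatives of *Lbp*, *Pltp*, the phospholipid transfer protein, was listed at 19.7 and 14.8 FPKM and *Bpifc* at 1.51 and 2.27 FPKM.

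**Figure D3:**
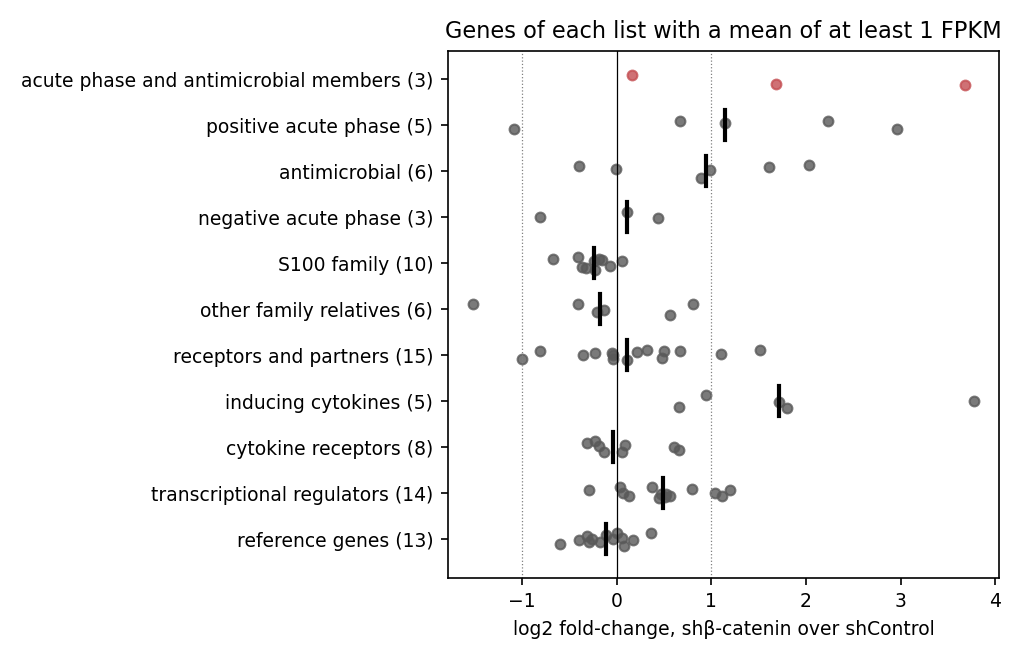
log2 fold-change (shβ-catenin over shControl) of each retained gene (mean of both libraries 1 FPKM or more), by list, with the number of genes in parentheses and a vertical bar at the median of every list but the members. The medians of the cytokines (1.72), the positive acute phase (1.14) and the antimicrobial genes (0.94) lie to the right of the S100 family (−0.23) and the reference genes (−0.11). Individual genes of most lists lie on both sides of 0. The lists were chosen with earlier results of these data known, and some of their genes stand in the study's table of higher genes, so the positions are descriptions only.

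Of 9 genes of cytokines that induce the acute phase, 3 (*Osm*, *Il17a* and *Il22*) were listed at 0 in both libraries and 5 were retained. All 5 were higher in shβ-catenin cells, 3 of them by more than 2-fold after 0.1 FPKM was added, and the median was 1.72. Of all retained genes 48.7% were higher and 3.27% more than 2-fold higher. The list was chosen with earlier results of these data known, and *Il1b* stands in the study's table of higher genes. *Il11* was retained only through its shβ-catenin value, so nothing is read from these counts. Besides *Il1b*, *Il1a* was listed at 22.1 and 77.0 FPKM (3.49-fold) and *Il6* at 1.36 and 4.69 FPKM (3.46-fold), folds that lie close to that of *Ptx3*. *Lif*, a cytokine of the interleukin 6 family, stood at 9.10 and 14.4 FPKM and *Il11*, another one, at 0.748 and 1.54 FPKM. The plain fold of *Il11* was 2.05, but its log2 fold-change with 0.1 FPKM added was 0.95, so it is not counted beyond 2-fold. *Tnf*, which was not retained, had the lower value in shβ-catenin cells, at 0.243 and 0.0729 FPKM. Its counting error was not worked out, so no direction is read from these values.

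The receptors of these cytokines differed less. All 8 with an entry were retained. Of these, 4 were higher and 4 lower, each by less than 2-fold, and the median was −0.04. *Il1r1*, the receptor of interleukin 1, was listed at 17.1 and 14.6 FPKM, its accessory chain *Il1rap* at 19.3 and 29.5 FPKM, *Il6st*, which encodes the shared receptor gp130, at 34.6 and 36.0 FPKM, *Il17ra* at 16.3 and 25.6 FPKM and *Osmr*, a receptor of oncostatin M, at 103 and 83.1 FPKM.

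Of 18 transcriptional regulators of acute phase genes, 14 were retained, and 13 of these were higher and 1 lower, with a median of 0.49. Over all retained genes 48.7% were higher and 3.27% more than 2-fold higher, and the median was −0.01. This list, too, was chosen with earlier results of these data known, so nothing is read from these counts. The 3 beyond 2-fold were *Nfkbiz*, *Nfkbia* and *Zc3h12a*. *Nfkbiz*, which encodes IκBζ, a nuclear cofactor needed in mouse macrophages for the induction of *Il6* and *Lcn2*, was listed at 29.8 and 68.8 FPKM. *Nfkbia*, the gene of the NF-κB inhibitor IκBα and itself an NF-κB target, stood at 48.0 and 104 FPKM. *Zc3h12a*, whose product degrades the mRNA of *Il6*, stood at 7.36 and 15.2 FPKM. The stress-induced factor *Atf3* came next, at 2.06 and 3.64 FPKM.

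The C/EBP genes *Cebpb* (61.6 and 85.2 FPKM) and *Cebpd* (47.2 and 64.6 FPKM) were higher by less than 2-fold, and the NF-κB subunit *Rela* was close to even (32.1 and 33.7 FPKM). *Stat3*, the mediator of interleukin 6 signaling, was the one lower gene, at 81.1 and 66.5 FPKM. The myeloid factors *Cebpe* and *Spi1* were listed at 0 in both libraries.

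**Figure D4:**
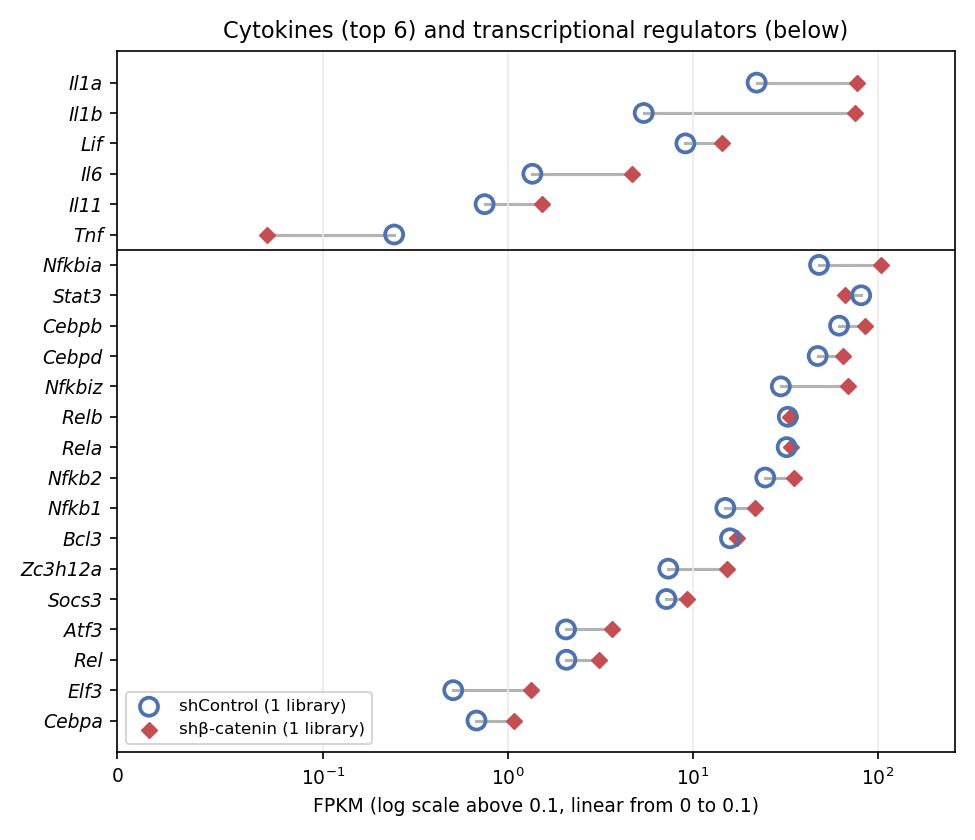
FPKM in shControl (open circles) and shβ-catenin cells (diamonds) of the inducing cytokines above the line and the transcriptional regulators below it, each ordered by mean, on an axis that is logarithmic above 0.1 FPKM. *Il1b* spans 5.42 to 75.6 FPKM, and most regulators shift to the right by less than 2-fold. *Tnf* has the lower value in shβ-catenin cells, but it lies under 1 FPKM in both libraries and its counting error was not worked out.

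Receptors and binding partners of the members went both ways, with 8 of 15 higher and a median of 0.11. *Cd14*, the receptor to which LPS-binding protein delivers lipopolysaccharide, was listed at 17.4 and 49.9 FPKM (2.86-fold). Its signaling partners *Tlr4* (1.76 and 1.71 FPKM) and *Ly96*, which encodes MD-2 (12.5 and 17.7 FPKM), differed less. The related receptor gene *Tlr2* was listed at 1.67 and 0.911 FPKM.

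Several partners of pentraxin 3 were expressed. *Tnfaip6*, the gene of TSG-6, which joins pentraxin 3 in the hyaluronan matrix, was listed at 65.0 and 103 FPKM, and the hyaluronan synthase gene *Has2* at 51.5 and 50.1 FPKM. *Vcan*, a proteoglycan of the same matrix, was listed at 206 and 103 FPKM, and *Fgf2*, a growth factor that pentraxin 3 binds, stood at 15.2 and 11.8 FPKM. For the complement component C1q, also a ligand of pentraxin 3, *C1qa* was listed at 5.403 and 11.7 FPKM, *C1qc* at 9.52 and 13.3 FPKM and *C1qb* at 0 in both libraries.

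Of the receptors of the other members, *Lrp1*, which clears α2-macroglobulin, was listed at 54.6 and 58.8 FPKM and *Slc22a17*, a receptor of lipocalin 2, at 10.4 and 10.02 FPKM. *Cd163*, the macrophage receptor of haptoglobin with hemoglobin, was listed at 0 in both libraries, while *Hmox1*, the enzyme that breaks down heme, stood at 377 and 437 FPKM. *Bsg*, which encodes a receptor of calprotectin, stood at 211 and 265 FPKM. Others were scarce, among them *Ager*, the gene of the calprotectin receptor RAGE (0.0713 and 0.171 FPKM), and *Lrp2*, the gene of the endocytic receptor megalin (0.00543 and 0.0522 FPKM). Also not retained were *Mmp9* (0.118 and 1.79 FPKM, 15.2-fold), *Itln1* (0.744 and 0.895 FPKM) and *Itih1* (0 and 0.0421 FPKM). The study's table of higher genes lists *Mmp9*. All of these genes had higher values in shβ-catenin cells, but their counting error was not worked out, so no direction is read from them.

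Markers of cell types known for these proteins were examined because, in bulk RNA, a change in the number of cells of a type and a change in RNA per cell cannot be told apart. Of 12 neutrophil markers 5 had an entry, with a summed level of 0.749 FPKM in the control and 3.85 FPKM after the knockdown. Nearly all of this was *Mmp8* (0.728 and 3.71 FPKM), and *Csf3r* (0 and 0.0604 FPKM), *Mpo* (0 and 0.0290 FPKM) and *Camp* (0 in both) were at or near 0. Of 10 macrophage markers, all with an entry, the summed level was 55.4 and 161 FPKM. Most of it was *Lyz* (41.5 and 127 FPKM), which is also counted among the antimicrobial genes. The 3 retained ones were higher, namely *Lyz*, *Cd68* (11.9 and 31.1 FPKM) and *Fcer1g* (0.670 and 1.70 FPKM). *Fcer1g* was retained only through its shβ-catenin value. Among those not retained, *Tyrobp* was lower (0.828 and 0.498 FPKM), and *Ptprc* and *Cd163* were listed at 0 in both libraries. The others above 0 had higher values, such as *Aif1* (0.368 and 0.442 FPKM) and *Csf1r* (0.0228 and 0.0547 FPKM). The part of such cells in the higher *Ptx3* was not tested.

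Of 7 follicular dendritic cell markers, *Cr2*, *Cxcl13* and *Fcamr* were listed at 0 in both libraries, and the summed level of 168 and 368 FPKM was mostly *Clu* (163 and 360 FPKM), followed by *Tnfsf13b* (5.34 and 8.17 FPKM). The others, *Fcer2* (0.0505 and 0.243 FPKM) and *Madcam1* (0.0257 and 0 FPKM), were not retained. Of 11 keratinocyte markers with an entry, the sum was 103 and 109 FPKM. It was mostly *Sfn* (75.4 and 74.1 FPKM) and *Dsc3* (26.7 and 33.7 FPKM), *Dsg3* stood at 1.23 and 1.30 FPKM, and *Krt5*, *Krt1*, *Ivl* and *Lor* were listed at 0 in both. The others were not retained and had higher values in shβ-catenin cells. These were *Krt10* (0.0462 and 0.167 FPKM), *Tp63* (0.0191 and 0.168 FPKM), *Epcam* (0 and 0.0853 FPKM) and *Cdh1* (0 and 0.0179 FPKM). Of 11 markers of glandular epithelium with an entry, the sum was 25.5 and 12.4 FPKM, most of it *Krt18*, a keratin of simple epithelia (22.6 and 7.21 FPKM). *Muc1* stood at 1.47 and 0.945 FPKM and the transcription factor *Ehf* at 0.481 and 2.42 FPKM, and *Krt8* and *Pigr* were listed at 0 in both. Not retained were *Elf3* (0.506 and 1.33 FPKM), *Krt7* (0 and 0.0292 FPKM) and *Epcam*, with higher values in shβ-catenin cells. *Cldn4* (0.418 and 0.335 FPKM) and *Aqp5* (0.0727 and 0 FPKM), also not retained, had lower ones. Of 9 hepatocyte markers with an entry, 6 were listed at 0 in both libraries, and the sum was 14.96 and 11.8 FPKM, mostly *Apob* (9.29 and 8.57 FPKM) and *Ahsg*. For the markers that were not retained, counting error was not worked out, so no direction is read from them. The part of epithelial or follicular dendritic cells in the higher *Fdcsp* was not tested.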

How the data were processed

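RNA of 1 shControl and 1 shβ-catenin culture of NSFs was sequenced. According to the labels and the methods of the paper, the authors made stranded mRNA libraries, mapped paired reads to an NMR genome with TopHat2 2.0.13, Bowtie2 2.2.3 and SAMtools 0.1.19, and deposited FPKM values from Cufflinks 2.2.1. The annotation and any filter are not given in the sources used here. Both tables list the same 37520 entries (37297 symbols), of which 268 share a symbol with another.

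Before log2 ratios were taken, 0.1 FPKM was added to both values, which understates the change of low genes, and plain folds are ratios of the FPKM values. Counts and medians used retained genes, those averaging 1 FPKM or more, with thresholds of 4-fold, as in the study, and 2-fold. With 1 library per group there are no tests, and a gene is called higher or lower by its values alone. Whole fragments were sought for *Slpi* as the smallest pair with a total of at most 60 that gives its ratio within 0.002% at the relative depth. Such a pair existed for 64.2% of the 5649 genes that averaged under 1 FPKM and were listed at 0 in neither library.

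The members and gene lists were chosen with earlier results of these data known. Named are all members, up to 4 retained genes per list (largest absolute log2 fold-change), *Ctnnb1* and the 5 genes nearest to *Fdcsp*. Other list genes (among them *Col1a1*, *Vim*, *Thy1* and *Lum*), the neighbors of the members and the 3 abundant genes above *Fdcsp* were named after their values were seen, for their role or position. Methods were tested on simulated data. RefSeq gene names matched 30313 of the symbols. No sequences are shown. Computation used Python 3.11.15 with matplotlib 3.10.9, scipy 1.17.1, pandas 2.3.3 and numpy 2.4.6.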

Additional observations from a re-analysis of the deposited data

How the results depend on the processing

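Alternatives were a pseudocount of 0.01 or 1 FPKM, scaling to a median ratio of 1 or to equal upper quartiles (shifts of 0.01 and 0.03 on the log2 scale), no filter on low values, a filter at an average of 5 FPKM and double the fragments of *Slpi*. Of 119 values recomputed, 102 moved by less than 1.5 times and kept their direction. Without the filter 4 members were more than 2-fold higher and 2 more than 4-fold, against 2 and 1, because *S100a9* and *A2m*, listed at 0 in shControl, then count and depend on the pseudocount. The median of the family relatives was −0.96 with the filter at 5 FPKM and 0.35 without the filter, against −0.17. The upper bound for *Slpi* fell from 94.4 to 16.6 with double the fragments.

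Over all genes, 89 were more than 4-fold higher and 27 lower. These counts were 24 and 6 with the filter at 5 FPKM, 409 and 197 without the filter, and 32 and 9 with a pseudocount of 1. At 2-fold they were 428 and 269, against 134 and 117, 2013 and 1145, and 236 and 145. No paired analysis was possible because each group is 1 library, and no library could be left out. Read depth is unknown, so values under 1 FPKM carry a counting error that only the fragments of *Slpi* describe.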

Other observations

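Some secreted proteins of the same families were listed at 0 in one library only. In shβ-catenin cells but not in shControl, the lipocalin gene *Ptgds* was listed at 0.352 FPKM, *Amtn*, an enamel protein gene, at 0.0540 FPKM and *Bpifb1*, a relative of *Lbp*, at 0.0721 FPKM. In shControl but not in shβ-catenin cells, *Wfdc2*, a relative of *Slpi*, was listed at 0.305 FPKM and *S100z* at 0.0818 FPKM. All of these lie below the level at which folds were counted.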
